A study of Jaculus jaculus with 13 samples.

Results

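The 37 genes of the mitochondrial genome were examined in the kidney transcriptome of the lesser Egyptian Jerboa (Jaculus jaculus), a desert rodent. They were chosen by position, as every row of the 24433 in the count table that lies on the same sequence (named MT in the JacJac1.0 assembly) as ENSJJAG00000000016. That gene, named COX1 below, was picked as the starting point because it had the most counts in each of the 13 animals. All animals were wild caught adult males, of unknown age, that were housed singly and fed dry food. The control group (CM01, CM03, CM04 and CM06, n = 4) drank freely. The dehydration group (DHM02, DHM03, DHM05 and DHM06, n = 4) was kept from water for 11 days according to the labels. The rehydration group (RHM01, RHM02, RHM04, RHM07 and RHM08, n = 5) went 7 days without water and then had it back for 3 days. The study's methods give a slightly shorter restriction for dehydrated males and a slightly longer return of water. Each library came from poly-A selected RNA of 1 whole left kidney, so every replicate was a separate animal.

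The mitochondrial genome of vertebrates is a small circular chromosome that each cell carries in many copies. Its protein coding genes encode core subunits of the respiratory chain and of ATP synthase, and its rRNA and tRNA genes serve the translation of those proteins inside the organelle. Both strands are transcribed as long precursors. The tRNAs that lie between most of the other genes are cut out to release the mRNAs, most of which are then polyadenylated. Kidney tubules, above all the proximal tubule and the thick ascending limb, are rich in mitochondria that supply ATP for solute transport.

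The count table carried identifiers and no symbols, so each gene was named from its place in the standard vertebrate order. The strand of 37 of the 37 rows was that of the standard order. The 15 rows over 150 bases long fell on the places of the 13 protein coding and 2 rRNA genes, and the 22 rows of 58 to 75 bases fell on the places of the tRNAs. Each gene had a single exon. The minus strand held 9 genes, namely ND6 and 8 tRNAs. All 37 genes had at least 1 count in some animal, and 33 of them had a mean count of at least 8, the minimum used here for testing. The 4 below it were tRNAs. tRNA-Trp had 3 counts, all in DHM02, and tRNA-Val had 2 counts in CM04, 1 in DHM06 and 1 in RHM01, none above the 3 counts taken as the floor of a library. tRNA-Ile had 2 to 15 counts and tRNA-Asp 3 to 14 counts per library.

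The libraries held 14071802 to 22949762 counts assigned to genes. Rehydration libraries were the smallest on average, at 14071802 to 19267059 counts, against 19801654 to 22949762 in controls and 18648494 to 19944214 in dehydration. RNA integrity was also lower in the rehydration group according to the study. The part of depth and RNA integrity in the results below was not tested. CM01 and RHM01 stand apart from their groups in the study's own clustering, and values without them are given where they bear on a result. The tissue label was checked with the 6 of 47 listed cell type markers that had an identifier. The proximal tubule transporter SLC17A3 was at 175 ± 15.9 CPM (a count scaled to an equal total of assigned counts in every library, SD, n = 4) in controls, and the collecting duct water channel AQP2 at 219 ± 33.3 CPM, while AQP4, another marker of collecting duct cells, was near the floor in controls at 0.199 ± 0.0804 CPM.

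Mitochondrial genes took between 9.41% and 16.4% of all assigned counts, and each of the rehydrated animals had a larger share than any of the dehydrated ones. In controls it was 9.60% in CM01, 12.5% in CM03, 11.4% in CM04 and 11.5% in CM06. In dehydration it was 10.03% in DHM02, 9.41% in DHM03, 10.7% in DHM05 and 10.3% in DHM06. In rehydration it was 16.4% in RHM01, 13.1% in RHM02, 12.2% in RHM04, 12.9% in RHM07 and 15.4% in RHM08. The dehydrated animals thus lay within the narrowest range, CM01 lay inside that range and the other 3 controls above it, and the rehydrated animals had the widest range. The 95% Wilson interval of a library's share was at most 0.018 percentage points to either side and covers counting error only.

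**Figure D1:**
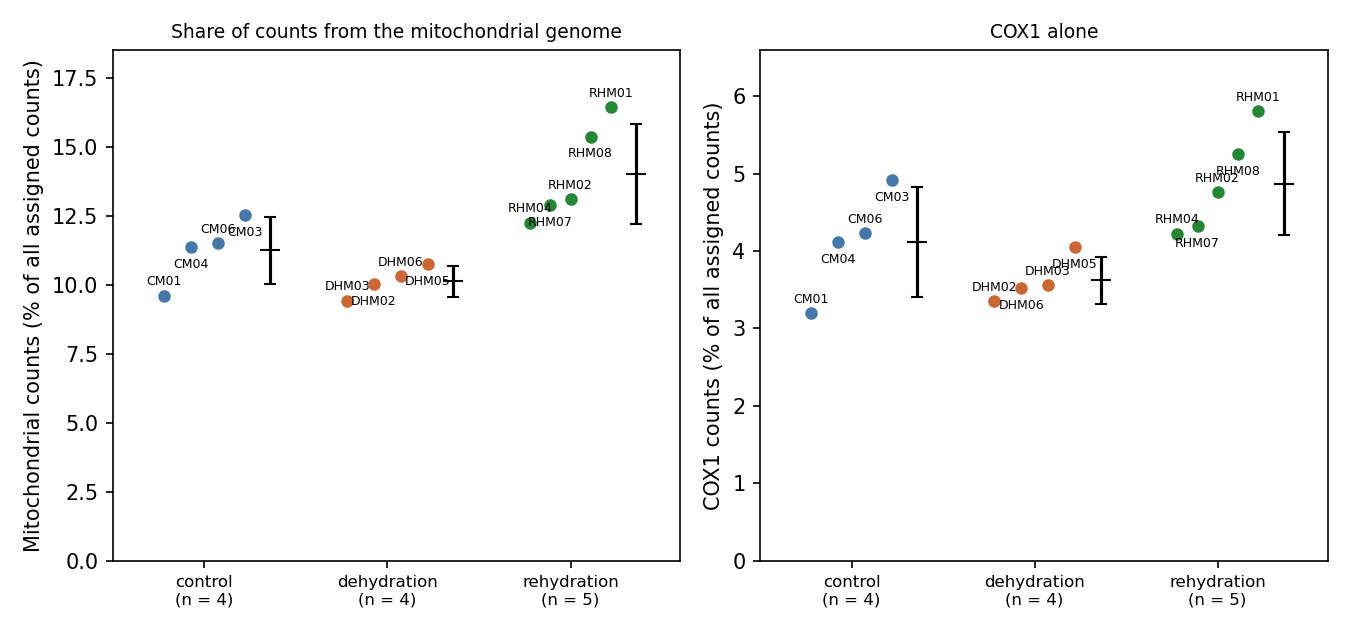
Share of all assigned counts from the mitochondrial genome (left, %) and from COX1 alone (right, %), with 1 point per animal and the mean ± SD of each group as a bar. The 5 rehydrated animals, at 12.2% to 16.4% on the left, all sit above the 4 dehydrated animals, which reach 10.7%, while the controls overlap both groups.

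The mean share was 11.2% ± 1.21 (SD, n = 4) in control, 10.1% ± 0.559 (n = 4) in dehydration and 14.001% ± 1.80 (n = 5) in rehydration. Rehydration and dehydration did not overlap, with a ratio of means of 1.38. Rehydration compared to control had a ratio of 1.25, and the groups overlapped because CM03 exceeded RHM04. Dehydration compared to control had a ratio of 0.900, and these groups overlapped too. Without CM01 and RHM01 the means were 11.8% in control and 13.4% in rehydration, and CM03 still exceeded RHM04. Set against nuclear counts, there were 12.7 ± 1.53, 11.3 ± 0.691 and 16.3 ± 2.46 mitochondrial counts per 100 nuclear counts in control, dehydration and rehydration. These are sums over the members and were described without a test. In whole kidney, fewer cells of a type and less RNA per cell cannot be told apart.

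The few markers that could be matched did not share 1 pattern. SLC17A3 was at 257 ± 12.3 CPM in dehydration and 208 ± 32.9 CPM in rehydration. The 5 collecting duct genes (AQP2, AQP3, AQP4 and the sodium channel subunits SCNN1B and SCNN1G) summed to 389 to 630 CPM in control, 1018 to 1338 CPM in dehydration and 505 to 698 CPM in rehydration. AQP2 and AQP3 made up most of that sum in control and dehydration, and SCNN1B and SCNN1G most of it in rehydration. SCNN1B was at 109 ± 45.2, 155 ± 25.7 and 238 ± 24.8 CPM in control, dehydration and rehydration, with rehydrated animals above all dehydrated ones. SLC17A3, AQP2 and AQP3 did not overlap between these groups either, but with rehydrated animals below all dehydrated ones. SCNN1G was at 78.6 ± 7.32, 109.9 ± 11.8 and 127 ± 22.2 CPM, and its dehydrated and rehydrated animals overlapped. None of the 6 was at 0 in any animal. The part of the cell type make-up in the mitochondrial share was not tested, and markers of the thick ascending limb were not analysed here.

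Protein coding genes made up nearly all of these counts. They held 97.9% ± 0.666 (SD, n = 4) of the mitochondrial counts in control, 97.6% ± 0.392 (n = 4) in dehydration and 97.8% ± 0.420 (n = 5) in rehydration. The rRNA genes held 2.020% ± 0.656, 2.15% ± 0.368 and 2.08% ± 0.426, and the tRNA genes 0.124% ± 0.0140, 0.208% ± 0.0379 and 0.141% ± 0.0168, in the same order of groups. Poly-A selection retains RNAs with poly-A tails, which most mitochondrial mRNAs carry, and does not aim at rRNAs or tRNAs. How far the level of each gene depends on this selection was not tested. Of the 10 most abundant genes of each animal, 5 to 7 were mitochondrial, COX1 being among them by the choice of members. By complex, the 3 genes of complex IV held 61.2% ± 1.47, 62.2% ± 2.22 and 60.9% ± 1.58 of the mitochondrial counts in control, dehydration and rehydration. The 7 genes of complex I held 20.7% ± 1.00, 20.6% ± 1.59 and 20.9% ± 1.36. These shares differed between groups by less than the spread between animals. CYTB of complex III held 8.06% ± 0.326, 8.74% ± 0.674 and 9.04% ± 0.489, and the 2 genes of ATP synthase 7.83% ± 1.91, 6.09% ± 0.280 and 6.91% ± 1.30.

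Levels were compared between genes per kilobase of gene length. COX1, which encodes the subunit of cytochrome c oxidase that holds its catalytic centre, led with 26658 ± 4593 CPM per kilobase in control. COX3 followed with 21307 ± 1928 and COX2, which takes electrons from cytochrome c, with 16182 ± 701. COX1 and COX3 overlapped among the controls, while COX3 lay apart from COX2, and COX2 from ATP6. ATP6, at 10459 ± 2282, and then ND4L, CYTB, ATP8, ND1, ND4, ND3 and ND2 followed, and in this run every gene overlapped the next one in the order. ND6, at 2101 ± 299.9, and ND5, at 968 ± 111, each stood apart from the gene above it. ND5, 16S rRNA at 917 ± 362 and 12S rRNA at 823 ± 269 overlapped each other at the lower end. In rehydration the first 4 places were the same, and the last was ND5 at 828 ± 190 CPM per kilobase. In dehydration CYTB, at 7737 ± 419.8, came before ATP6, at 7228 ± 621, with overlap, COX3 overlapped COX2, and ND5 was again last.

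**Figure D2:**
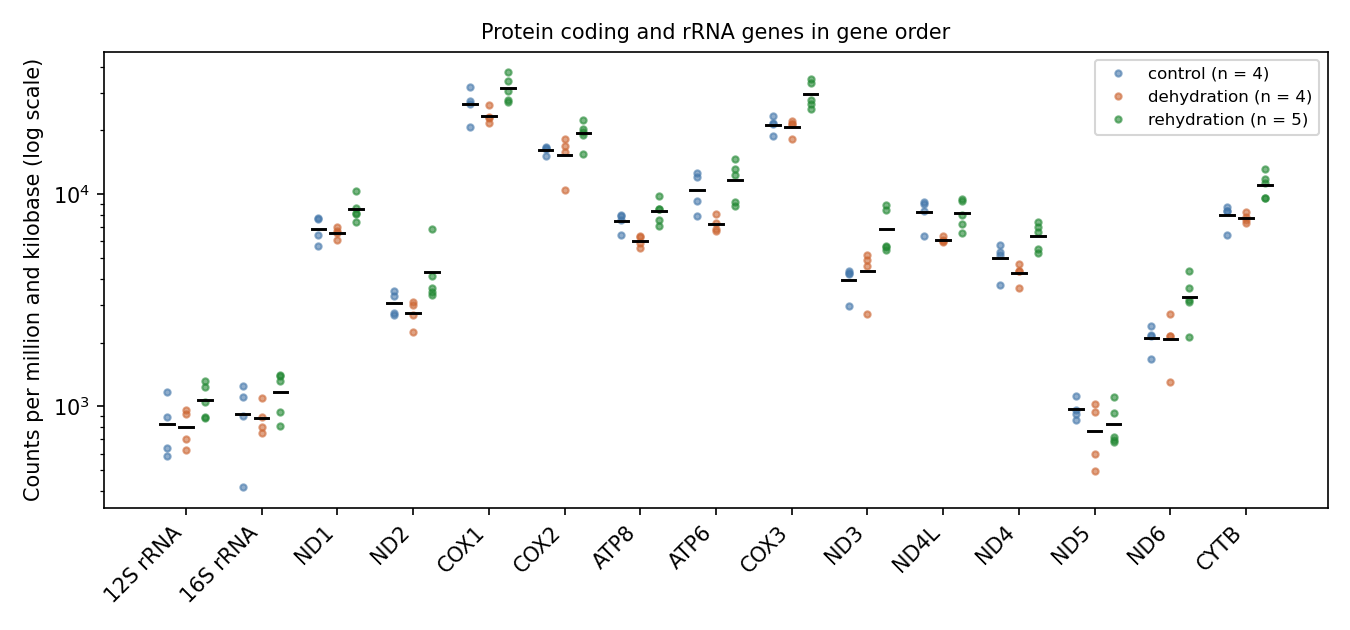
CPM per kilobase (log scale) of the 13 protein coding and 2 rRNA genes in the order of the genome, with 1 point per animal and a black line at each group's mean. COX1, COX2 and COX3 stand highest, and ND5 and the rRNA genes lowest, in all 3 groups.

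Neighbouring genes were compared where they share an mRNA. ATP8 and ATP6, which share 46 bases and are carried by 1 mRNA in vertebrates, stood at 7460 ± 684 and 10459 ± 2282 CPM per kilobase in control. ATP6 was above ATP8 within each of the 13 animals, although the ranges of the 2 genes overlapped among controls. In dehydration these ranges did not overlap. ND4L and ND4, which share 7 bases and an mRNA, stood at 8215 ± 1283 and 4996 ± 885. With the default setting of the counting tool a fragment that touches 2 genes is left out, so the values of short, overlapping and tRNA genes depend on where fragments end. The library counts were also taken without strand, so ND6 and the minus strand tRNAs could not be told apart from antisense transcripts of their place.

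Some members varied between animals of a group far more than others. ATP6, which encodes the proton channel subunit of ATP synthase, held 8.56% of the mitochondrial counts in CM01, 5.03% in CM03, 4.71% in CM04 and 7.503% in CM06. It held 4.54% to 5.10% in the 4 dehydrated animals. In rehydration it held 7.72% in RHM07 and 4.57% to 5.85% in the other 4 animals. ATP8, its neighbour, stayed between 1.12% and 1.43% in the 13 animals. Its highest shares were also those of CM06 and CM01 among the controls, at 1.43% and 1.39%, and of RHM07 among the rehydrated animals, at 1.36%, but CM04 followed closely at 1.38%. ND5 held 1.36% to 1.79% in control, 0.958% to 1.86% in dehydration and 0.819% to 1.31% in rehydration, so that every rehydrated animal lay below every control. ND4L was lower in this way too, at 1.48% to 1.94% in rehydration against 1.97% to 2.38% in control. COX3 and CYTB lay higher in every rehydrated animal than in every control. COX3 held 15.99% to 17.9% against 14.6% to 15.3%, and CYTB 8.53% to 9.81% against 7.65% to 8.36%. ND3 held 1.24% ± 0.262, 1.49% ± 0.370 and 1.68% ± 0.203 in control, dehydration and rehydration. 16S rRNA, of the large subunit of the mitochondrial ribosome, held 0.572% in CM06 and 0.977% to 1.79% in the other 12 animals.

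**Figure D3:**
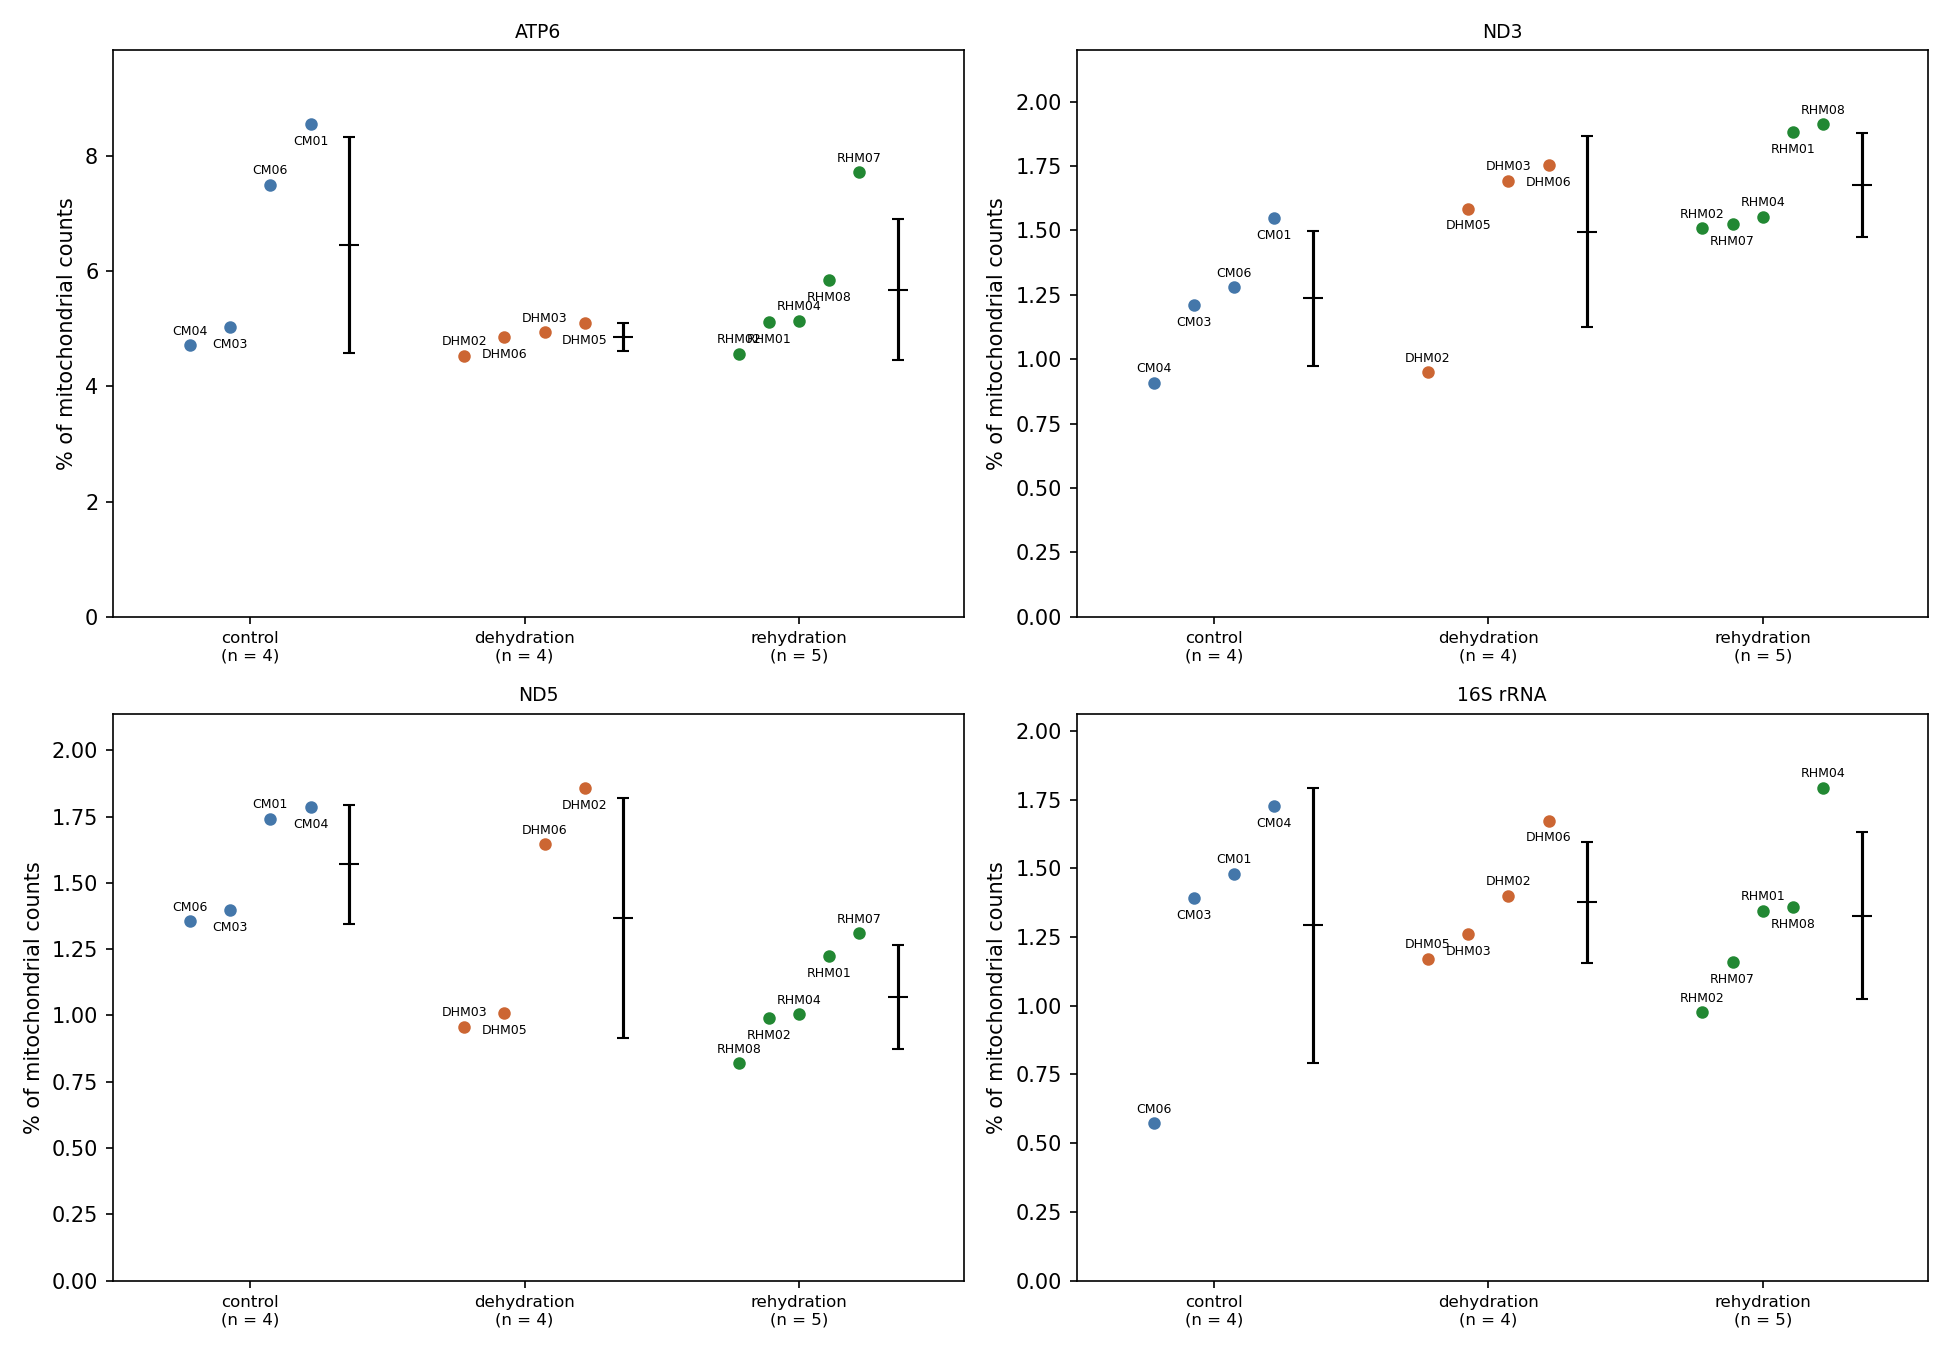
Share of the mitochondrial counts (%) held by ATP6, ND3, ND5 and 16S rRNA, with 1 point per animal and the mean ± SD of each group as a bar. ATP6 is high in CM01, CM06 and RHM07, 16S rRNA is low in CM06, and the ND5 shares of rehydrated animals all lie below those of controls.

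The next comparison asked which of the 33 genes with enough counts differed between groups. It was addressed with a quasi-likelihood test in edgeR over all 15064 genes that passed the same filter, with Benjamini-Hochberg adjustment over all of them and DEGs called at an adjusted p under 0.01, the threshold of the study. The share of all genes called was 0.478% for dehydration compared to control, 28.8% for rehydration compared to control and 8.19% for rehydration compared to dehydration. Against this background edgeR called 0, 1 and 0 of the 33 mitochondrial genes. The single DEG was tRNA-Glu, higher in rehydration than in control. At an adjusted p under 0.05 the numbers were 2, 8 and 12 of 33, where the share of all genes was 5.93%, 43.6% and 24.0%. The 8 and the 12 genes were all higher in rehydration, where 20.8% and 9.86% of all genes passed this threshold in that direction. DESeq2, the tool of the study, called 2, 5 and 12 of 33 at an adjusted p under 0.01, where it called 6.30%, 36.1% and 18.4% of all genes. At an unadjusted p under 0.05 edgeR had 9, 14 and 15 of 33, against 24.2%, 51.3% and 37.9% of all genes. The control animals, and the dehydrated and rehydrated ones, enter more than 1 comparison, so the 3 results are not independent.

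**Figure D4:**
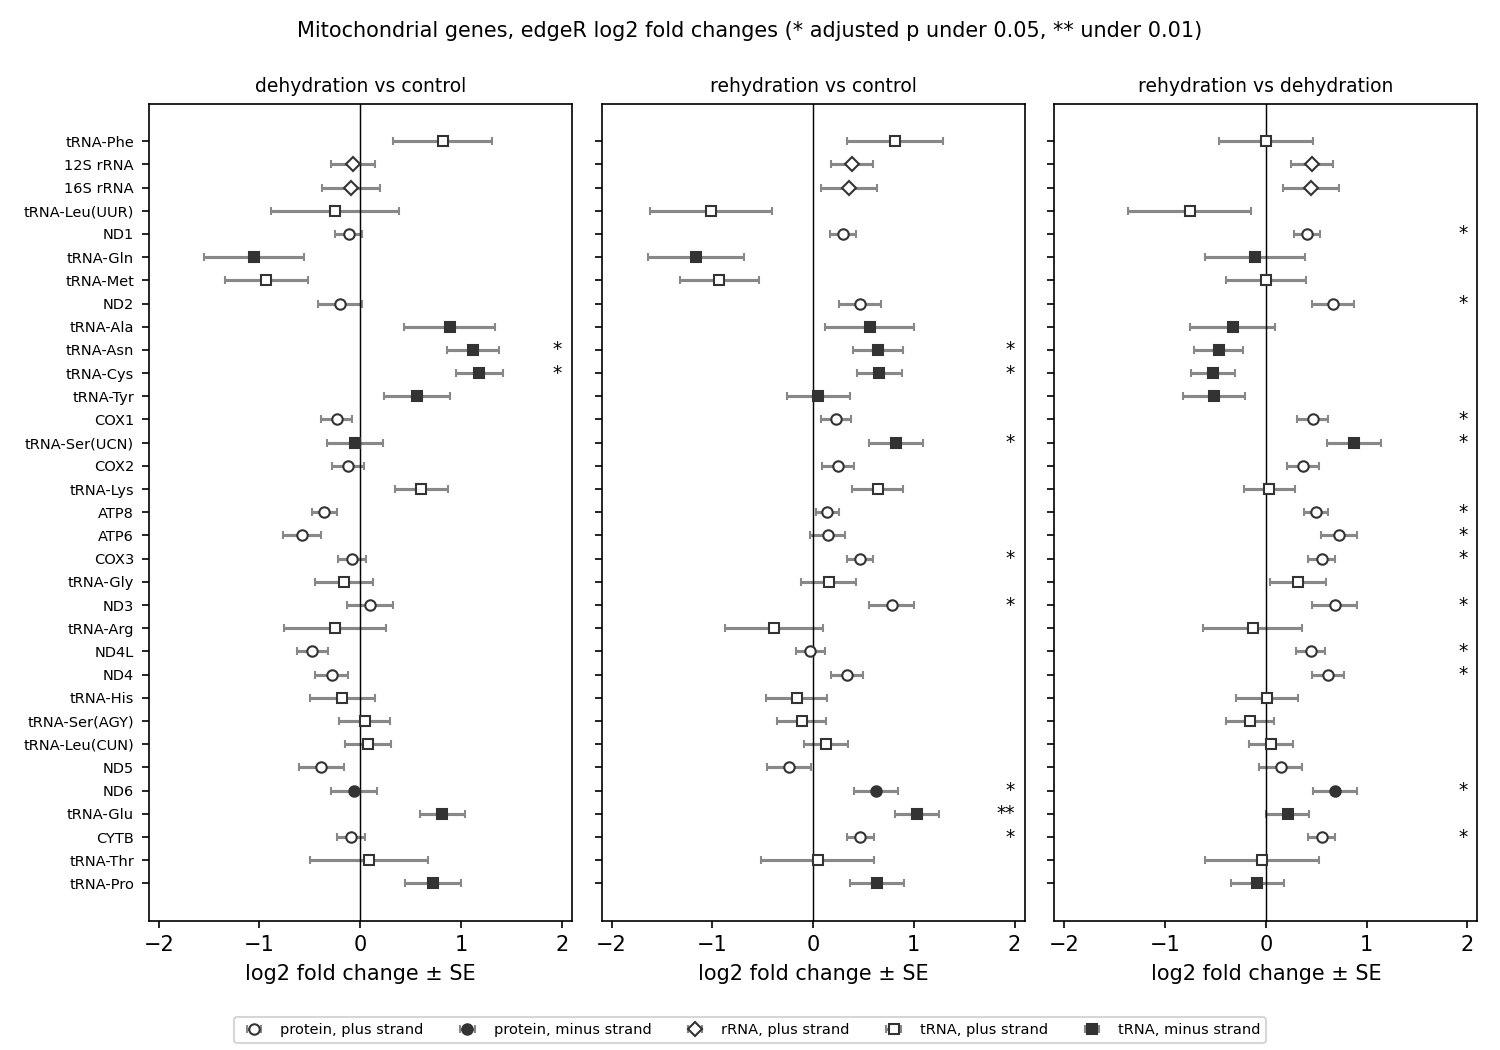
The edgeR log2 fold change ± SE of the 33 tested mitochondrial genes in genome order for each comparison, with filled symbols for the minus strand, 1 star for an adjusted p under 0.05 and 2 stars for one under 0.01. In the right panel all 13 protein coding genes lie above 0, and in the left panel 12 of the 13 lie below it, none of them with a star.

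In rehydration compared to dehydration most protein coding genes had higher values, although none was called at 0.01 by edgeR, while DESeq2 called 11 of the 13 (all but COX2 and ND5), where it called 18.4% of all genes. All 13 had a positive log2 fold change, from 0.15 for ND5 to 0.72 for ATP6. Their median was 0.55, where the median of all genes tested was −0.00415. The median of the 13 was 0.45 without RHM01 and 0.43 without CM01 and RHM01. Of the 13, 11 had an edgeR adjusted p under 0.05, and 10 did not overlap between the groups and were higher, where 8.13% of all genes tested did so. Since their counts add up to the share described above, this is the same difference seen gene by gene.

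COX3, a structural subunit of complex IV, had 16768, 14205, 17343 and 16772 CPM in DHM02, DHM03, DHM05 and DHM06. It had 26281, 21896, 19742, 20916 and 27474 CPM in RHM01, RHM02, RHM04, RHM07 and RHM08. The lowest rehydrated animal thus lay above the highest dehydrated one, and the log2 fold change was 0.55 ± 0.13 (SE, edgeR adjusted p = 0.0119). CYTB, the subunit of complex III that oxidises ubiquinol, had 8912, 8610, 8319 and 9439 CPM in the dehydrated animals in the same order, and 15049, 12848, 10975, 10992 and 13438 CPM in the rehydrated ones. These did not overlap either, at a log2 fold change of 0.56 ± 0.13 (edgeR adjusted p = 0.012).

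Both genes of ATP synthase had higher values in every rehydrated than in every dehydrated animal. ATP6 had 4548, 4649, 5483 and 5009 CPM in dehydration and 8422, 5978, 6293, 9945 and 8985 CPM in rehydration, a log2 fold change of 0.72 ± 0.18 (edgeR adjusted p = 0.0135). ATP8, a small subunit that links the membrane part of the enzyme, had 1154, 1223, 1297 and 1309 CPM in dehydration and 2041, 1470, 1569, 1756 and 1761 CPM in rehydration. Its log2 fold change was 0.50 ± 0.12, with the lowest adjusted p of the protein coding genes in this comparison (edgeR adjusted p = 0.0105), just above the threshold.

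Among the subunits of complex I, which takes electrons from NADH, ND4 had the lowest adjusted p. It was at 5998, 6476, 6022 and 4967 CPM in dehydration and 9609, 7595, 9110, 7261 and 10191 CPM in rehydration, a log2 fold change of 0.62 ± 0.16 (edgeR adjusted p = 0.0155). ND1, ND2, ND3, ND4L and ND6 had log2 fold changes of 0.41 ± 0.13, 0.67 ± 0.21, 0.68 ± 0.22, 0.45 ± 0.15 and 0.69 ± 0.22, with edgeR adjusted p between 0.0348 and 0.0411. ND2 was highest in RHM01, with 7163 CPM where the other 4 rehydrated animals had 3478 to 4299 CPM. ND5 was the exception in complex I, with 0.15 ± 0.21 (edgeR adjusted p = 0.657) and groups that overlapped.

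COX1 had 33533, 35597, 40481 and 35233 CPM in dehydration and 58068, 47622, 42232, 43198 and 52580 CPM in rehydration, a log2 fold change of 0.46 ± 0.15 (edgeR adjusted p = 0.0408). COX2 was at 0.37 ± 0.16 (edgeR adjusted p = 0.1002) and overlapped between the groups. The rRNA genes, 12S of the small and 16S of the large ribosomal subunit, were at 0.45 ± 0.21 and 0.45 ± 0.28 (edgeR adjusted p = 0.130 and 0.254), and neither met either threshold.

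In rehydration compared to control the protein coding genes were less uniform. The median log2 fold change of the 13 was 0.30, where that of all genes tested was 0.0269, and 11 of 13 were above 0. This median was 0.18 without CM01 and 0.17 without CM01 and RHM01. COX3, CYTB, ND3 and ND6 had an edgeR adjusted p under 0.05. In DESeq2 COX3, CYTB and ND3 were called at 0.01, with adjusted p of 0.000823, 0.00136 and 0.00141. DESeq2 called 36.1% of all genes in this comparison. ND1, ND2 and ND6 were under 0.05 but not 0.01 in DESeq2, at 0.0440, 0.0496 and 0.0116. COX3 had 14674, 18328, 16845 and 16972 CPM in CM01, CM03, CM04 and CM06, below every rehydrated animal, and a log2 fold change of 0.47 ± 0.13 (edgeR adjusted p = 0.0123). CYTB had 7342, 9945, 9498 and 9520 CPM in the controls, again below every rehydrated animal, at 0.47 ± 0.13 (edgeR adjusted p = 0.0128). ND3 had 1485, 1514, 1033 and 1470 CPM in the controls and 3093, 1976, 1900, 1963 and 2939 CPM in the rehydrated animals. This was the largest difference among the protein coding genes, at a log2 fold change of 0.78 ± 0.22 (edgeR adjusted p = 0.0126). Without CM01 and RHM01 the edgeR adjusted p of ND3 was 0.0490. ND6, the only protein coding gene on the minus strand, was at 0.63 ± 0.22 (edgeR adjusted p = 0.0344), and its groups overlapped. ND4L and ND5 lay below 0, at −0.03 ± 0.14 and −0.24 ± 0.21 (edgeR adjusted p = 0.884 and 0.389). ND1, ND2, ND4, COX1, COX2, ATP8 and ATP6 were at 0.30, 0.47, 0.33, 0.23, 0.25, 0.14 and 0.14, and the 12S and 16S rRNA genes at 0.38 ± 0.21 and 0.36 ± 0.28, with edgeR adjusted p between 0.0825 and 0.539. Of the 33 genes, 4 did not overlap and were higher, namely COX3, ND3, CYTB and tRNA-Glu, where 16.4% of all genes tested did so.

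Dehydration compared to control gave small and mostly negative values for the protein coding genes, and none passed the looser threshold of 0.05 in edgeR. In DESeq2 ATP6, ND4L and ATP8 passed 0.05 but not 0.01, with adjusted p of 0.0190, 0.0196 and 0.0315. The median log2 fold change of the 13 protein coding genes was −0.20, where that of all genes tested was 0.00437, and 12 of 13 were below 0. The median was −0.12 without CM04 and −0.30 without CM01. ATP6 had 8215, 6296, 5357 and 8623 CPM in control against 4548 to 5483 CPM in dehydration, a log2 fold change of −0.58 ± 0.19 (edgeR adjusted p = 0.0821), and DHM05 exceeded CM04. ATP8 had 1338, 1626, 1567 and 1645 CPM in control, above every dehydrated animal, at −0.36 ± 0.12 (edgeR adjusted p = 0.0951). ND4L had 1894, 2659, 2467 and 2739 CPM in control and 1811, 1794, 1887 and 1779 CPM in dehydration, at −0.47 ± 0.15 (edgeR adjusted p = 0.0794). ATP8 and ND4L were the 2 of 33 genes that did not overlap and were lower, where 7.87% of all genes did so. The other 10 protein coding genes lay between −0.38 ± 0.23 for ND5 and 0.10 ± 0.23 for ND3, and the 12S and 16S rRNA genes at −0.07 ± 0.22 and −0.09 ± 0.29 (edgeR adjusted p = 0.876 and 0.873).

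The tRNA genes were summed by strand. The 8 tRNA genes on the minus strand summed to 108, 113, 100.1 and 95.8 CPM in CM01, CM03, CM04 and CM06. They summed to 212, 116, 188 and 201 CPM in DHM02, DHM03, DHM05 and DHM06, and to 185, 189, 139, 138 and 190 CPM in RHM01, RHM02, RHM04, RHM07 and RHM08. Every control thus lay below every other animal, DHM03 by the smallest margin.

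The means of the minus strand tRNA sums were 104 ± 7.91, 179 ± 43.1 and 168 ± 27.3 CPM in control, dehydration and rehydration, a ratio to control of 1.72 in dehydration and 1.61 in rehydration. The 14 tRNA genes of the plus strand summed to 34.5 ± 15.9, 31.6 ± 4.08 and 28.4 ± 5.21 CPM, and these groups overlapped. The control mean rests on CM04, at 57.1 CPM, where the other controls had 20.5 to 32.8 CPM, so the order of these means is not a result. Scaled in the same way to mitochondrial counts alone, the minus strand sums were 937 ± 132 in control, 1763 ± 381 in dehydration and 1201 ± 147 in rehydration. On that scale dehydration still did not overlap control, while rehydration did. The strand was taken from the annotation and not from the reads, and the sums were described without a test. The members did not all follow their sum. On the minus strand tRNA-Ser(UCN) was near 0 in dehydration and tRNA-Tyr near 0 in rehydration. The negative values of tRNA-Gln over control do not count here, since it met the minimum count only through the controls. On the plus strand tRNA-Lys and tRNA-Phe had positive values over control, at 0.82 ± 0.49 and 0.82 ± 0.48 for tRNA-Phe (edgeR adjusted p = 0.331 and 0.182). In rehydration compared to dehydration 6 of the 8 minus strand tRNAs lay below 0.

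**Figure D5:**
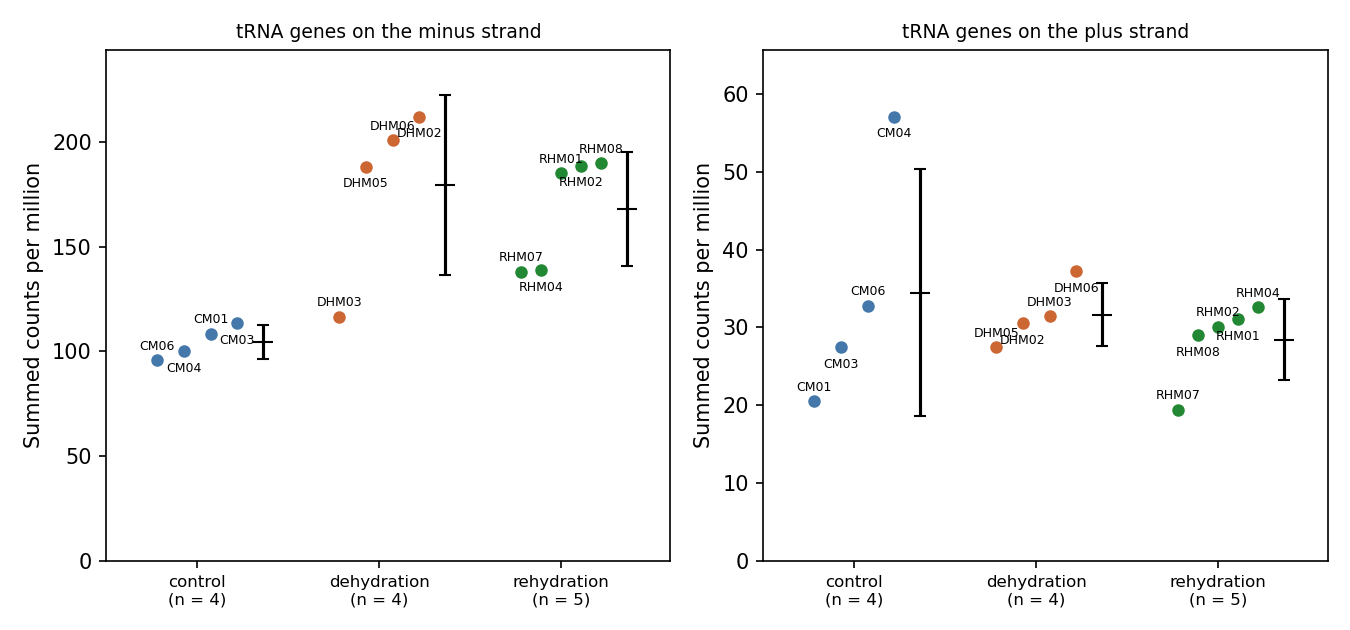
Summed CPM of the 8 tRNA genes on the minus strand (left) and the 14 on the plus strand (right), with 1 point per animal and the mean ± SD of each group as a bar. On the left the controls, at 95.8 to 113 CPM, lie below all dehydrated and rehydrated animals, and on the right the groups overlap.

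tRNA-Glu (MT:14099-14166, minus strand) lies between ND6 and CYTB and carries glutamate. It had 9.79, 10.1, 9.67 and 9.95 CPM in CM01, CM03, CM04 and CM06, from 216, 232, 201 and 197 counts. The coefficient of variation in controls was 1.93%, the lowest of the tested tRNAs. Counting error alone exceeds this at such counts, so no conclusion was drawn from it. It had 16.03, 10.9, 17.99 and 26.7 CPM in DHM02, DHM03, DHM05 and DHM06, and 22.1, 24.9, 19.7, 15.3 and 19.8 CPM in RHM01, RHM02, RHM04, RHM07 and RHM08. All 9 treated animals lay above all controls. Rehydrated animals exceeded controls in 5 of 5 cases, and the gene rose by 1.03 ± 0.22 on the log2 scale (edgeR adjusted p = 0.0022). In dehydration compared to control it was at 0.82 ± 0.23 (edgeR adjusted p = 0.052), and in rehydration compared to dehydration at 0.21 ± 0.21 (edgeR adjusted p = 0.491). Without both CM01 and RHM01 the rehydration call was lost, at 0.98 (edgeR adjusted p = 0.0132), while it held when any 1 animal was left out, at an adjusted p of up to 0.00795. The call was also lost with a block for the replicate number (edgeR adjusted p = 0.0219), although the log2 fold change was 1.20 there. Over all alternatives the adjusted p ran from 3.24e-05 with DESeq2 to 0.0219 with this block.

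tRNA-Cys (MT:5209-5276) and tRNA-Asn (MT:5102-5174), both on the minus strand, are neighbours on either side of an unannotated gap of 34 bases. In vertebrates this gap holds the origin of light strand replication. tRNA-Cys had 16.6, 18.7, 17.1 and 21.4 CPM in control and 48.5, 29.96, 47.97 and 46.7 CPM in dehydration, a log2 fold change of 1.18 ± 0.23 (edgeR adjusted p = 0.0157). tRNA-Asn had 9.20, 9.89, 8.52 and 10.8 CPM in control and 26.97, 14.7, 22.7 and 21.8 CPM in dehydration, at 1.12 ± 0.26 (edgeR adjusted p = 0.0282). Both were higher in 4 of 4 dehydrated animals, DHM03 being the lowest each time, and both missed the threshold of 0.01 in edgeR. With DESeq2 both were called, with adjusted p of 0.000113 and 0.00136. Over all alternatives the adjusted p ran up to 0.105 for tRNA-Cys and 0.129 for tRNA-Asn.

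In rehydration the means of both tRNAs lay between those of the other groups, and the animals were more scattered. tRNA-Cys had 24.2, 40.95, 16.96, 38.02 and 27.6 CPM and a log2 fold change over control of 0.66 ± 0.22 (edgeR adjusted p = 0.0294). tRNA-Asn had 12.3, 21.5, 7.98, 20.5 and 13.9 CPM, at 0.65 ± 0.25 (edgeR adjusted p = 0.050). RHM04 lay within the range of the controls for tRNA-Cys and below all of them for tRNA-Asn. In rehydration compared to dehydration they were at −0.52 ± 0.22 and −0.47 ± 0.24 (edgeR adjusted p = 0.0972 and 0.174).

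tRNA-Pro (MT:15389-15455, minus strand), the last annotated gene before the control region, had the most counts of the tRNAs. It had 35.1, 52.2, 34.1 and 28.6 CPM in control, 91.2, 37.3, 56.8 and 70.2 CPM in dehydration, and 77.5, 55.1, 46.2, 39.9 and 73.2 CPM in rehydration. The groups overlapped, at 0.72 ± 0.28 and 0.63 ± 0.27 over control (edgeR adjusted p = 0.134 and 0.0724). Without it the other 7 minus strand tRNAs summed to 66.9 ± 5.01, 115 ± 24.7 and 109.6 ± 16.3 CPM, and the controls still lay below all other animals.

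tRNA-Ser(UCN) (MT:6892-6961, minus strand), which overlaps the end of COX1 by 3 bases, had another pattern. It had 28.9, 15.8, 22.3 and 13.8 CPM in control, 17.2, 16.6, 22.3 and 23.9 CPM in dehydration and 40.2, 35.1, 40.0, 17.9 and 45.2 CPM in rehydration. RHM07 lay within the range of the other groups and the other 4 rehydrated animals above it. The log2 fold change was 0.82 ± 0.27 over control and 0.87 ± 0.27 over dehydration (edgeR adjusted p = 0.0237 and 0.0319), and −0.05 ± 0.28 in dehydration compared to control (edgeR adjusted p = 0.928). DESeq2 called it in rehydration over control and over dehydration, with adjusted p of 0.00603 and 0.00541.

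The other 3 minus strand tRNAs were less abundant. tRNA-Tyr was at 7.58 ± 1.73, 11.6 ± 5.89 and 7.90 ± 2.23 CPM in control, dehydration and rehydration, with 19.8 CPM in DHM05. tRNA-Ala and tRNA-Gln were at most 1.18 and 1.20 CPM in any animal. tRNA-Gln was at −1.05 ± 0.50 and −1.16 ± 0.47 over control (edgeR adjusted p = 0.213 and 0.063). Its mean counts were 17.25 in control, 7.75 in dehydration and 6.2 in rehydration. It thus met the minimum of 8 only through the controls, and no conclusion was drawn from its direction.

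Of the 10 tested tRNAs of the plus strand, none had an edgeR adjusted p under 0.05 in any comparison. In DESeq2 tRNA-Lys and tRNA-Met were under 0.05 in rehydration compared to control, at 0.0401 and 0.0491. tRNA-Lys came closest among those with higher values, with 1.68 to 2.021 CPM in control, 2.21 to 3.75 CPM in dehydration and 1.63 to 3.66 CPM in rehydration. Dehydration did not overlap control, as for 4 of the 33 genes, all of them tRNAs, where 11.0% of all genes tested did so and were higher. Its log2 fold changes over control were 0.61 ± 0.27 and 0.64 ± 0.25 (edgeR adjusted p = 0.180 and 0.0561). tRNA-Met was at 6.05 ± 3.83, 3.27 ± 1.36 and 3.22 ± 0.923 CPM in control, dehydration and rehydration, and −0.93 ± 0.41 and −0.93 ± 0.39 over control (edgeR adjusted p = 0.187 and 0.0698), with 11.5 CPM in CM04. tRNA-Leu(UUR) had 25.0 CPM in CM04 and 1.92 to 12.8 CPM in the other 12 animals. Its −1.01 ± 0.61 in rehydration compared to control became 0.27 ± 0.42 without CM04. The remaining 7, for phenylalanine, glycine, arginine, histidine, serine (AGY), leucine (CUN) and threonine, had edgeR adjusted p between 0.182 and 0.998 over the 3 comparisons, with levels from 0.142 CPM for threonine in RHM07 to 7.11 CPM for glycine in RHM01.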

How the data were processed

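The authors deposited raw read counts per gene, which they made from trimmed paired reads of poly-A selected kidney RNA aligned to JacJac1.0 and counted over gene models (Subread 1.6.2 and FastQC 0.11.5 in the submitters' processing notes). Counts of 13 animals were used, and 2 columns of other animals were not used here. Intervals cover counting error within 1 library only and hold no spread between animals. Reads carried no molecular identifiers, so repeated reads of 1 molecule could not be told apart from separate molecules. Fragments from nuclear copies of mitochondrial DNA were not tested for. Shares and CPM were computed over all assigned counts. Genes whose mean count reached 8 were tested with edgeR 4.0.16 in R 4.3.3 (TMM scaling, quasi-likelihood test, all 3 groups in 1 fit, Benjamini-Hochberg adjustment, threshold 0.01). DESeq2 1.42.0, other scalings and filters, a replicate block and animals left out were alternatives. The code was tested on simulated data. All genes on the MT sequence were members, and those whose mean reached 8 were named with values. The members and lists were chosen with earlier results of these data known. Marker identifiers came from the study's text and primer list, where a surplus zero was removed from 4. The 116 nuclear oxidative phosphorylation and related genes, and 41 of 47 markers, had no identifier in the sources used here and were not analysed. No sequences of the Jerboa were used here.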

Additional observations from a re-analysis of the deposited data

Results flagged for a closer look

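Each value below was a sample far from the others of its group by Dixon's gap criterion, which chance meets in about 1 in 20 groups, here 5 of 111 groups tested over 37 measures. The summed plus strand tRNA level was 19.4 CPM in RHM07, where the other 4 rehydrated animals had 28.98 to 32.6 CPM. tRNA-Leu(UUR) was at 25.0 CPM in CM04, where the other 3 controls had 2.73 to 5.66 CPM. ND2 was at 7163 CPM in RHM01, where the other 4 rehydrated animals had 3478 to 4299 CPM. tRNA-Cys was at 29.96 CPM in DHM03, where the other 3 dehydrated animals had 46.7 to 48.5 CPM. ND3 was at 1033 CPM in CM04, where the other 3 controls had 1470 to 1514 CPM.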

How the results depend on the processing

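The number of mitochondrial genes called depended on the tool and on single animals. In dehydration compared to control it was 0 with edgeR, 2 with DESeq2, 1 (tRNA-Cys) with only these groups in the fit, 2 at an adjusted p under 0.05 and 0 to 1 with 1 animal left out, the 1 being tRNA-Cys without RHM04. In rehydration compared to control it was 1 with edgeR, 5 with DESeq2, 0 without CM01 and RHM01, 8 at an adjusted p under 0.05 and 1 to 4 with 1 animal left out (2 without DHM02, 3 without RHM07, 4 without RHM04). In rehydration compared to dehydration it was 0 with edgeR, 12 with DESeq2, 1 (ATP8) with a minimum mean count of 50, 12 at an adjusted p under 0.05 and 0 to 3 with 1 animal left out (3 without CM01, 2 without RHM02, 1 without RHM07). The cause was not tested. Leaving the 10 most abundant nuclear genes out of the total must raise every share. The means were then 11.98%, 10.8% and 14.97% in control, dehydration and rehydration. Rehydrated animals, at 13.2% to 17.5%, still lay above the dehydrated ones, at 10.1% to 11.5%. Controls, at 10.1% to 13.4%, still overlapped both groups.

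Other scalings and no count filter left these numbers at 0, 1 and 0. The other scalings moved the median of all genes by at most 0.0252 on the log2 scale. The median of the protein coding genes ran from −0.30 to −0.12, from 0.17 to 0.43 and from 0.43 to 0.63 in the 3 comparisons, in the order above. Of 2060 single gene estimates 106 changed sign, none of them called. Those whose first value exceeded its SE were tRNA-Leu(UUR), ATP8 (rehydration compared to control, 0.14 to −0.01 without CM01 and RHM01) and 16S rRNA (rehydration compared to dehydration, 0.45 to −0.03 under the block).

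The labels do not say that replicate numbers pair animals, and not every same-numbered pair correlated positively, so the animals were not treated as paired. The 5 same-numbered pairs correlated at 0.119 on average (−0.0157 to 0.338), above the −0.0107 of the 51 other pairs. As a weak hint from the data 6 of 10 animals correlated best with their own number. These were CM01 with RHM01 (0.338), CM04 with RHM04 (0.158) and DHM02 with RHM02 (0.0620), each counted from both sides. CM01 and RHM01 both had higher inflammatory gene expression according to the study, which assigned animals to groups at random. With the replicate block 0, 1 and 0 mitochondrial genes were called, and 0, 987 and 0 genes in all. The 1 was ND3 (edgeR adjusted p = 0.00778) and not tRNA-Glu (0.0219). The log2 fold change of tRNA-Glu was not smaller with the block, at 1.20 against 1.03 without it. Over all genes tested the calls were 72, 4331 and 1233 with edgeR, 949, 5439 and 2769 with DESeq2, 157, 3257 and 313 with only the groups compared in the fit, 118, 4339 and 1441 with a minimum mean count of 50, and 141, 3358 and 852 without CM01 and RHM01. With 1 animal left out they ran from 1 to 235, from 3334 to 4491 and from 380 to 2005.

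Animals left out of the mitochondrial composition and the minus strand tRNA sums, and those sums without tRNA-Pro, were chosen after seeing the data. The planned results for nuclear oxidative phosphorylation genes could not be given. Depth limits the tRNAs with few counts.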
